A study of Mus musculus with 6 samples.

Results

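The genes for proteins of the mitochondrial ribosome were compared between macrophages with and without the long non-coding RNA Morrbid. Members were all genes whose symbol begins with Mrpl or Mrps followed by a number, 78 of the 16138 listed in the authors' deposited table. Of these, 49 carry a large-subunit symbol (Mrpl) and 29 a small-subunit symbol (Mrps), and all 78 are listed as mRNA. Bone marrow cells of mice were grown into macrophages for 7 days with 50 ng/ml of macrophage colony-stimulating factor and 20% fetal bovine serum. Their RNA was sequenced in 6 samples. The 3 control samples came from Morrbid fl/fl mice, whose Morrbid gene is flanked by loxP sites. The 3 knockout samples, called cKO here, came from mice of the genotype Morrbid fl/fl/Lyz2-Cre, in which Cre is made from the Lyz2 locus of myeloid cells and removes the flanked sequence. Both groups thus carried the flanked gene and only cKO mice carried Cre, so loss of Morrbid and presence of Cre at Lyz2 cannot be told apart. The series title places the work in abdominal aortic aneurysm and vascular inflammation mediated by macrophages.

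Mitochondria translate the few messenger RNAs of their own genome on a ribosome of their own. Its ribosomal RNAs are encoded in mitochondrial DNA, but all of its proteins are encoded in the nucleus, made in the cytosol and imported. The products are core subunits of the respiratory chain, so that the mitochondrial ribosome is needed for oxidative phosphorylation. Part of its proteins descend from bacterial ribosomal proteins and part are found in no bacterial ribosome.

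The authors' deposited table gives 1 log2 fold change of cKO over control, 1 p-value and 1 q-value per gene, with no value per sample and no expression level. Values for each library were not analysed here, their depth is unknown, and the spread between samples enters only through the p-value. The labels do not say whether samples of a genotype came from separate mice, so that spread may be technical. A q under 0.05 was met by 278 genes of the authors' deposited table, or 1.72%, with 137 higher and 141 lower in cKO. For Lyz2, whose locus carries Cre, the authors' deposited table gives a log2 fold change of -0.85 (q = 4.6e-06). All 10 macrophage markers were listed, which shows nothing of their level. Besides Lyz2, Adgre1 was the only one of them to pass, at 0.44 (q = 0.0104), and 6 of the 10 had ratios above 0, in the authors' deposited table. The 17 stromal and fibroblast markers all had ratios below 0 in the authors' deposited table, beside 52.3% of all genes. Their median was -1.70, with a median implied standard error (defined below) of 0.553, and 3 of them passed the threshold. An unadjusted p under 0.05 was reached by 16 of the 17 markers, beside 8.84% of all genes. Their part in any ratio given here was not tested.

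No gene for a mitochondrial ribosomal protein passed the test between cKO and control macrophages. None of the 49 large-subunit and none of the 29 small-subunit genes had a q under 0.05 in the authors' deposited table, against 1.72% of all genes. The same count of 0 of 78 was found at an unadjusted p under 0.05, which 8.84% of all genes reached, and the smallest p of any member was 0.0865 with a q of 0.706. The log2 fold changes of the members ran from -0.28 for Mrps6 to 0.23 for Mrps10 in the authors' deposited table, which is 0.823 to 1.17 times the control level. Their median was -0.03, beside -0.01 for all genes, and 44 of 78 lay below 0, or 56.4%, beside 52.3% of all genes.

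How large a difference could have been missed follows from the precision of each ratio. A standard error was computed from each ratio and its p-value, which assumes a Wald-type test. This implied standard error had a median of 0.126 log2 units over the members and ran from 0.0879 to 0.222, beside a median of 0.185 for all genes. At the members' median, an observed change of 0.42 log2 units, or 1.34-fold, was needed for a q under 0.05. A true change of that size would not always have been called. For 74 of the 78 members the 95% interval of the log2 fold change lay wholly between -0.5 and 0.5. The other 4 reached beyond these bounds, and the furthest limits were -0.65 for Mrps6 and 0.56 for Mrps10. Differences inside these intervals cannot be told from none, so that equal expression is not shown.

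The spread of the members' ratios was set beside their errors. The SD of the 78 log2 fold changes was 0.103, below the root mean square of the implied standard errors, 0.133. Each member's interval held 0. Differences between single members were not tested, and the highest and lowest were picked from 78 by their ratios. The ratio divided by its implied standard error had a root mean square of 0.801 over the members, beside 1.21 over all genes. Because all genes were measured in the same libraries, the members' ratios are not independent of each other. Among the 8037 genes whose implied standard error lay within the members' range, 2.10% had a q under 0.05 and 10.8% an unadjusted p under 0.05. That background was chosen after the data had been seen.

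**Figure D1:**
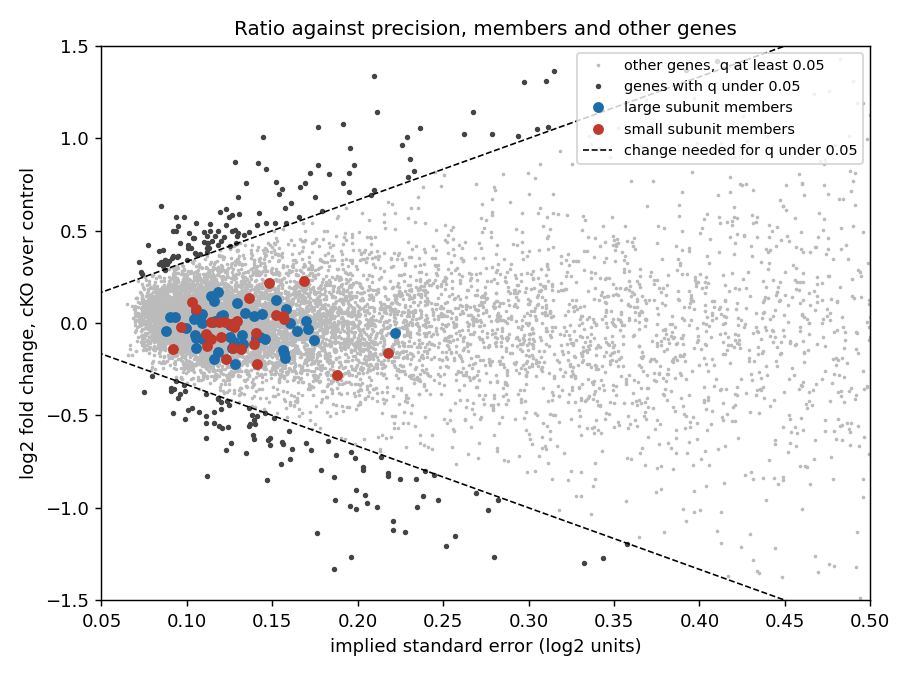
Log2 fold change of cKO over control (vertical axis, log2 units) against the implied standard error (horizontal axis, log2 units), with 1 point per gene: large-subunit members in blue, small-subunit members in red, other genes with a q under 0.05 in dark grey and the rest in light grey, and dashed lines at the change needed for a q under 0.05. All 78 members lie between the dashed lines, from -0.28 to 0.23; genes beyond the axes are not drawn.

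The large subunit joins amino acids and passes the growing chain through its exit tunnel. Its 49 genes had a median log2 fold change of -0.03 in the authors' deposited table, with 28 below 0 and 21 above 0, and none passed. All 49 intervals lay between -0.5 and 0.5. The 5 lowest were Mrpl34, Mrpl14, Mrpl42, Mrpl38 and Mrpl2. Mrpl34 (Gene ID 94065), whose protein is the counterpart of bacterial L34, stood at -0.22 with an implied standard error of 0.128 (p = 0.0865, q = 0.706) in the authors' deposited table. Mrpl14 (Gene ID 68463), which encodes a protein of the face turned towards the small subunit, stood at -0.19 with an implied standard error of 0.116 (p = 0.0989, q = 0.737) in the authors' deposited table. These were the only members with a p under 0.1, and both were lower in cKO. Mrpl42 was at -0.19, Mrpl38, a protein of the central protuberance, at -0.16, and Mrpl2, which lines the peptidyl transferase region, at -0.16 in the authors' deposited table.

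At the other end of the large subunit stood Mrpl45, whose protein holds the ribosome to the inner membrane at the tunnel exit. It had a log2 fold change of 0.17 with an implied standard error of 0.118 (p = 0.16, q = 0.873) in the authors' deposited table. Mrpl3, another protein near the peptidyl transferase region, stood at 0.15, Mrpl55 at 0.12, Mrpl52 at 0.12 and Mrpl1, the protein of the mobile L1 stalk, at 0.11 in the authors' deposited table. Mrpl44, whose protein has the fold of a ribonuclease III, stood at -0.13 with an unadjusted p of 0.2 in the authors' deposited table. Mrpl58, a peptidyl-tRNA hydrolase that became part of the ribosome, stood at -0.13 (p = 0.291) in the authors' deposited table. The interval of each of these held 0.

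Sites within the large subunit were described by the members assigned to them here, which may not be all that form them. The stalk that recruits translation factors, with its base, held Mrpl10 (0.03), Mrpl11 (0.04), Mrpl12 (-0.08), Mrpl53 (-0.09) and Mrpl54 (0.05) in the authors' deposited table, and their median was 0.03. The 5 genes of the tunnel exit, Mrpl22, Mrpl23, Mrpl24, Mrpl45 and Mrpl47, ran from -0.15 for Mrpl23 to 0.17 for Mrpl45 in the authors' deposited table, with a median of -0.03. The 8 genes assigned to the central protuberance ran from -0.16 for Mrpl38 to 0.12 for Mrpl55 in the authors' deposited table. Of these, 5 lay above 0 and the median was 0.02. At none of these sites did the members share a direction.

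**Figure D2:**
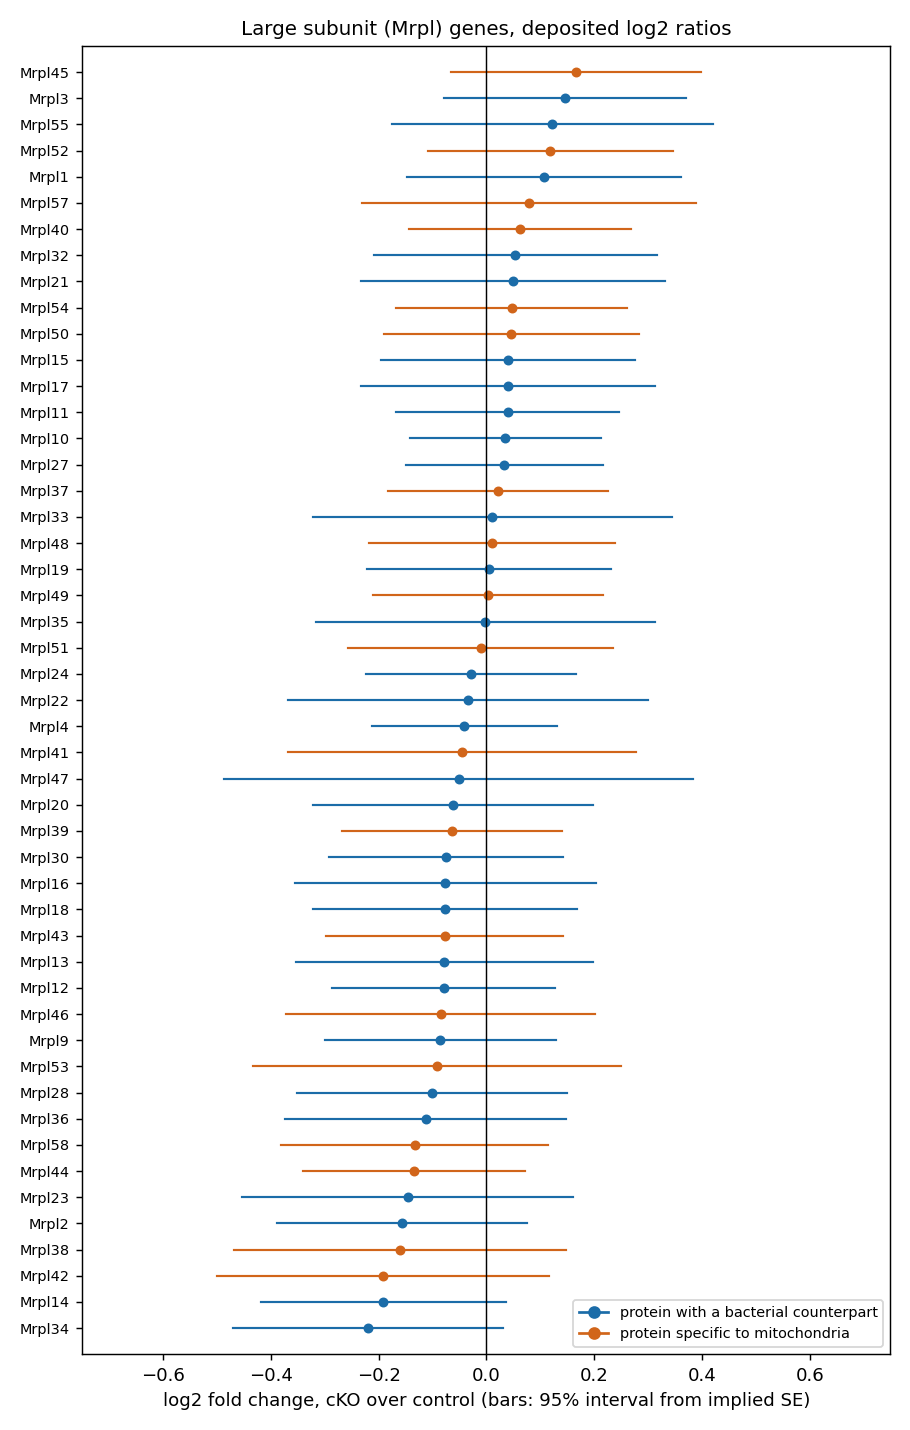
Log2 fold change of cKO over control (horizontal axis, log2 units) for each of the 49 large-subunit genes, ordered by ratio, with bars for the 95% interval from the implied standard error; blue marks proteins with a bacterial counterpart and orange those specific to mitochondria. Every bar crosses 0, and both colours are found along the whole range from -0.22 to 0.17.

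The small subunit binds the messenger RNA and reads its codons. Its 29 genes had a median log2 fold change of -0.02 in the authors' deposited table, with 16 below 0 and 13 above 0, and none passed. Mrps6 (Gene ID 121022), the counterpart of bacterial S6, was lowest at -0.28, with an implied standard error of 0.188 and a 95% interval from -0.65 to 0.09 (p = 0.135, q = 0.826) in the authors' deposited table. Mrps25 stood at -0.22 (p = 0.12, q = 0.796) and Mrps21, the counterpart of S21, at -0.19 (p = 0.116, q = 0.786) in the authors' deposited table. Mrps28 was at -0.16, Mrps34 at -0.14 and Mrps23 at -0.14 in the authors' deposited table. The last had the smallest implied standard error of the subunit, 0.0917, and its interval ran from -0.32 to 0.04. Mrps12, the protein of the decoding centre that is the counterpart of S12, stood at -0.14 (p = 0.28) in the authors' deposited table.

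Mrps10 (Gene ID 64657), the counterpart of S10, was the highest member, at 0.23 with an implied standard error of 0.168 and an interval from -0.10 to 0.56 (p = 0.181, q = 0.902) in the authors' deposited table. Mrps2 stood at 0.08 (p = 0.47) in the authors' deposited table. Several core proteins were close to 0: Mrps5, at the entrance of the messenger RNA channel, Mrps11, Mrps15 and Mrps17 each stood at 0.01 in the authors' deposited table. Mrps27, a pentatricopeptide repeat protein, stood at 0.04 and Mrps22 at 0.02 in the authors' deposited table. As the lowest and the highest member were picked by their ratios, the distance between them is a description.

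**Figure D3:**
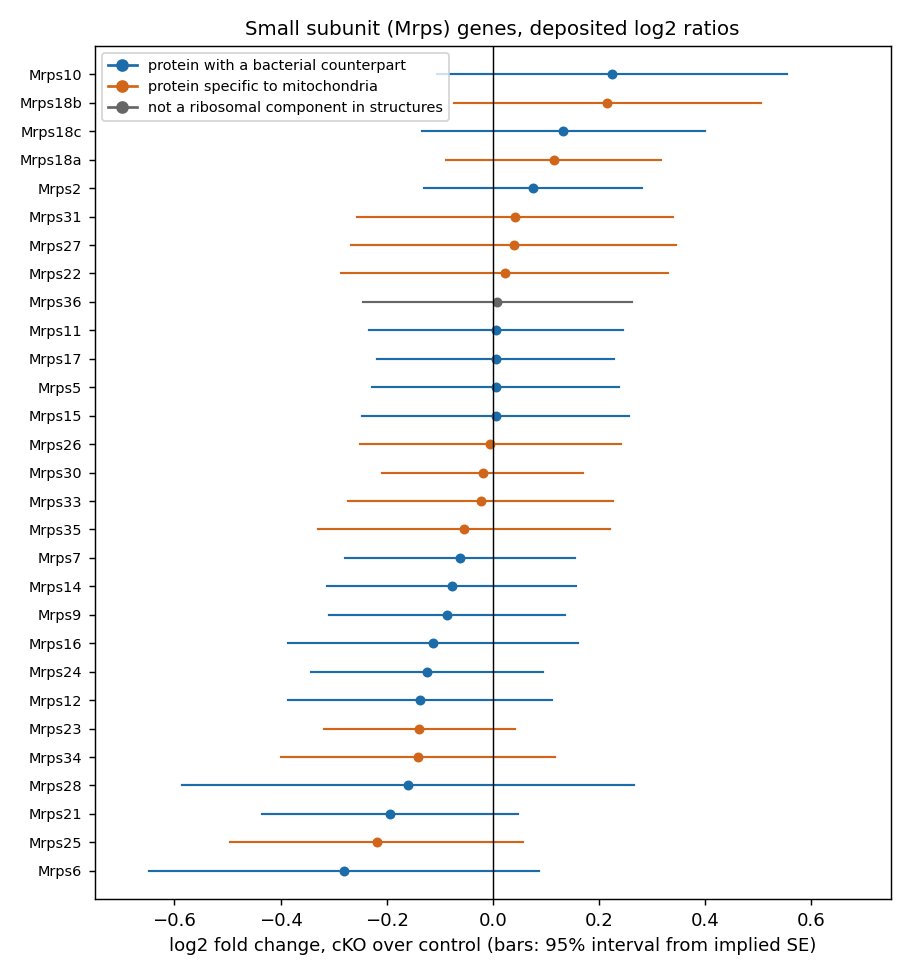
Log2 fold change of cKO over control (horizontal axis, log2 units) for each of the 29 small-subunit genes, ordered by ratio, with bars for the 95% interval from the implied standard error; blue marks proteins with a bacterial counterpart, orange those counted as specific to mitochondria, Mrps18a and Mrps18b among them, and grey Mrps36. Every bar crosses 0, from Mrps6 at -0.28 to Mrps10 at 0.23, and the 3 Mrps18 paralogs stand next to each other near the top.

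Symbols do not in every case give the place of the protein. In published structures the proteins of Mrps18a and Mrps30 belong to the large subunit, and that of Mrps36 is a component of the 2-oxoglutarate dehydrogenase complex and not of the ribosome. Mrps30 stood at -0.02 (p = 0.843) and Mrps36 at 0.01 (p = 0.944) in the authors' deposited table. With the subunits set by structure, 51 genes of the large subunit had a median of -0.03 and 26 of the small subunit a median of -0.04. The 2 medians were -0.03 and -0.02 by symbol, so that the order of the subunits depends on the assignment. The difference between the subunits was not tested.

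Mammals have 3 paralogs of bacterial S18, and each occupies its own place in the ribosome: Mrps18c the position of S18, Mrps18b another site of the small subunit and Mrps18a the large subunit. All 3 had ratios above 0 and none passed. Mrps18b stood at 0.22 with an interval from -0.07 to 0.51 (p = 0.144, q = 0.845), Mrps18c at 0.13 from -0.13 to 0.40 (p = 0.329) and Mrps18a at 0.11 from -0.09 to 0.32 (p = 0.266) in the authors' deposited table. How the counting treated reads shared between similar genes is not stated in the labels or the file headers.

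The promoters of these paralogs are shown because all 3 hold an ETS motif. Sequences are RefSeq's for the assembly GRCm38.p6, from 250 bases before to 50 after the annotated start, 5′ to 3′ on the strand of the gene. As the submitters' processing notes name mm9, the coordinates belong to GRCm38.p6 alone. Mrps18a lies at chr17:46110754-46111053 (plus strand), Mrps18b at chr17:35916391-35916690 (minus strand) and Mrps18c at chr5:100798509-100798808 (plus strand). Capitals mark matches, on either strand, to the ETS motif CCGGAAG, the NRF1 motif GCATGCGC, the YY1 motif AAGATGGC or the E-box CACGTG, which reads the same on both strands.
Mrps18a: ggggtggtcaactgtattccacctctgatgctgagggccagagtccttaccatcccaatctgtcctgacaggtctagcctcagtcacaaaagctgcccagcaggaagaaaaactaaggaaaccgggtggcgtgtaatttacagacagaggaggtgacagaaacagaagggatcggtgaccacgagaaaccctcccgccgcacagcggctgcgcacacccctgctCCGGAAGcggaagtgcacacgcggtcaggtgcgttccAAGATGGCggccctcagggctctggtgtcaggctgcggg
Mrps18b: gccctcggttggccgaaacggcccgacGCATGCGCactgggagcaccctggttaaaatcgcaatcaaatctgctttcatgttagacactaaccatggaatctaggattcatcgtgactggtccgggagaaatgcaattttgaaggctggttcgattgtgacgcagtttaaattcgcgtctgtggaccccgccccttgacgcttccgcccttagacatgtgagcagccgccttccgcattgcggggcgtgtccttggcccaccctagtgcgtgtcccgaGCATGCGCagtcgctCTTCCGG
Mrps18c: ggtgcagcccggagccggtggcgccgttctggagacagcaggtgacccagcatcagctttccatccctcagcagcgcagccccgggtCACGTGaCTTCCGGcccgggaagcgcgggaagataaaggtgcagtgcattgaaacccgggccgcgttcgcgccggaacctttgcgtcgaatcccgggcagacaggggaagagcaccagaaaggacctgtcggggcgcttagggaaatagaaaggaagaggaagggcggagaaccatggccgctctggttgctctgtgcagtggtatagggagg
Mrps18a has an ETS match and a YY1 match, Mrps18b an ETS match at the end of the window and 2 NRF1 matches, and Mrps18c an E-box next to an ETS match.

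Across the members, 69 of 78 had a promoter in the RefSeq table, in 75 windows. The ETS motif, bound by GABP among other ETS factors, was in 34.7% of member promoters, beside 8.86% of all 32851 promoters and 14.7% of the promoters of genes in the authors' deposited table. The YY1 motif was in 16.0% of member promoters, beside 2.75% of all and 3.73% of those of genes in the table. For the NRF1 motif these shares were 10.7%, 2.71% and 4.39%. By subunit, the NRF1 motif was in 14.6% of Mrpl windows but 3.70% of Mrps windows, the latter below the share of genes in the table. The ETS motif was in 31.25% of Mrpl and 40.7% of Mrps windows, and the YY1 motif in 12.5% and 22.2%. At least 1 of these motifs was in 38 of 75 windows (50.7%), beside 13.3% of all promoters and 21.0% of those of genes in the table. The E-box, read by MYC among others, was in 9.33% of member promoters, beside 7.15% of all and 9.11% of those of genes in the table. The CCAAT box of NF-Y was in 40.0%, beside 37.4% and 37.6%. The motif TCAAGGTCA of estrogen-related receptors was in none of the 75 windows and in 0.423% of all. Windows of 1 gene, or of genes that start close together, share sequence, and a match is not a binding site.

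The ratios of members with and without a motif were set side by side, with no test. The median log2 fold change was 0.00 for 26 members with an ETS match and -0.04 for 43 without, and 0.02 for 8 with an NRF1 match and -0.02 for 61 without, from the ratios of the authors' deposited table. For YY1 it was 0.00 for 12 with a match and -0.02 for 57 without, and for CCAAT -0.02 for 27 and -0.02 for 42. For the E-box it lay the other way, at -0.06 for 5 with a match and -0.01 for 64 without. The promoters of the lowest and the highest member are shown since neither holds an ETS, NRF1, YY1, E-box or estrogen-related receptor motif, and so neither has capitals (CCAAT boxes were not marked). Mrps6 lies at chr16:92058086-92058385 (plus strand) and Mrps10 at chr17:47368947-47369246 (plus strand), on GRCm38.p6.
Mrps6: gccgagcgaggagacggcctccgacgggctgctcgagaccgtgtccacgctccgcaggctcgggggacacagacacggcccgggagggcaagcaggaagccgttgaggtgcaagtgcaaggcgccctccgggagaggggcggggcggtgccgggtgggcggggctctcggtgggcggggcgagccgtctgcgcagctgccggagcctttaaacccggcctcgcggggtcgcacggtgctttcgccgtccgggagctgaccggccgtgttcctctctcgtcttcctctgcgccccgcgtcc
Mrps10: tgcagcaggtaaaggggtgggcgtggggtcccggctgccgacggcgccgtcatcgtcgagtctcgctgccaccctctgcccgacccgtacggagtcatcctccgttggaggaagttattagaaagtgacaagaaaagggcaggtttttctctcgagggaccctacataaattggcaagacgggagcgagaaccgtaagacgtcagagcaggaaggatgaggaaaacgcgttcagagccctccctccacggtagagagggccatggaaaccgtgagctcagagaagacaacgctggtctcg

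Proteins of the mitochondrial ribosome were also sorted by whether they hold the position of a bacterial ribosomal protein. Mrps18a and Mrps18b descend from S18 but sit elsewhere, and were counted as specific to mitochondria. The 46 members with a bacterial counterpart had a median log2 fold change of -0.05, with 27 below 0, and the 31 specific to mitochondria a median of -0.01, with 17 below 0, in the authors' deposited table. With Mrps18a and Mrps18b moved to the first group, an alternative added after the values were seen, the medians were -0.04 and -0.02. The difference between the groups was not tested. Further 5 components are known under other symbols: Dap3, a GTP-binding protein of the small subunit, stood at -0.02, Chchd1 at -0.02, Aurkaip1 at -0.01, Ptcd3, a pentatricopeptide repeat protein, at -0.01 and Gadd45gip1, of the large subunit, at -0.00 in the authors' deposited table. None passed, and the smallest p of the 5 was 0.822.

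Genes that assemble, feed or regulate the mitochondrial ribosome were described by 7 lists with 118 genes. At an unadjusted p under 0.05 there were 3 of the 118, against 8.84% of all genes. Only 1 of the 118 had a q under 0.05 in the authors' deposited table, against 1.72% of all genes. That gene was Pprc1 (Gene ID 226169), a coactivator of the PGC-1 family that acts on NRF1 and GABP targets. It rose by a log2 fold change of 0.47, 1.38 times the control level, with an implied standard error of 0.112 and an interval from 0.25 to 0.69 (q = 0.00342) in the authors' deposited table. The NRF1 and GABP genes themselves did not pass. Nrf1 stood at 0.15 with an interval from -0.09 to 0.39 in the authors' deposited table. Of the GABP genes, Gabpb1 was highest, at 0.21 with an interval from -0.02 to 0.45. Gabpa stood at 0.01, from -0.18 to 0.21, and Gabpb2 at 0.07, from -0.17 to 0.32, in the authors' deposited table. Yy1, a separate factor, did not pass either, at 0.07 with an interval from -0.09 to 0.24. Of the related coactivators, Ppargc1b stood at 0.47 (q = 0.723), and Ppargc1a at 1.44 with an implied standard error of 2.75, too imprecise to read, in the authors' deposited table. Of the 10 nuclear regulators, 8 had ratios above 0 and 2 below 0 (20%, beside 52.3% of all genes). Their median was 0.11, beside -0.01 for all genes. The 8 include the imprecise Ppargc1a, and of the 10 only Pprc1 passed. Esrra, an estrogen-related receptor, stood at -0.02 (p = 0.873) and Myc at -0.13 (p = 0.703) in the authors' deposited table.

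None of the 26 genes of ribosome assembly and ribosomal RNA modification passed (median 0.02, 16 above 0). The smallest p was that of Malsu1, which binds the protein of Mrpl14 and keeps the large subunit from joining too early. Malsu1 stood at -0.31 with an interval from -0.63 to 0.01 (p = 0.0589, q = 0.602) in the authors' deposited table, beside -0.19 for Mrpl14. Ybey, an endoribonuclease family member, stood at -0.29 (p = 0.158) in the authors' deposited table. None of the 19 translation factors and related proteins passed (median -0.04). Among them Mtif2, the initiation factor, stood at 0.17 (p = 0.14) and Lrpprc, which stabilizes mitochondrial messenger RNAs, at 0.15 (p = 0.146) in the authors' deposited table. Nor did any of the 20 mitochondrial tRNA synthetases and amidotransferase subunits pass (median -0.02), and the smallest p-values belonged to Ears2 at 0.33 (p = 0.193) and Fars2 at -0.17 (p = 0.25) in the authors' deposited table.

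Upkeep and expression of mitochondrial DNA were represented by 24 genes, of which none passed (median 0.02). Polg, the catalytic subunit of the mitochondrial DNA polymerase, stood at -0.22 (p = 0.0412, q = 0.515) and Elac2, which trims the 3′ ends of tRNA precursors, at 0.20 (p = 0.0781, q = 0.675) in the authors' deposited table. Protein quality control in mitochondria was covered by 14 genes, none of which passed (median 0.04). Hspa9, the mitochondrial HSP70 chaperone, stood at 0.29 (p = 0.0444, q = 0.533) and Atf5, a factor of the mitochondrial stress response, at 0.22 (p = 0.186) in the authors' deposited table. Polg and Hspa9 were the genes that, besides Pprc1, had an unadjusted p under 0.05.

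**Figure D4:**
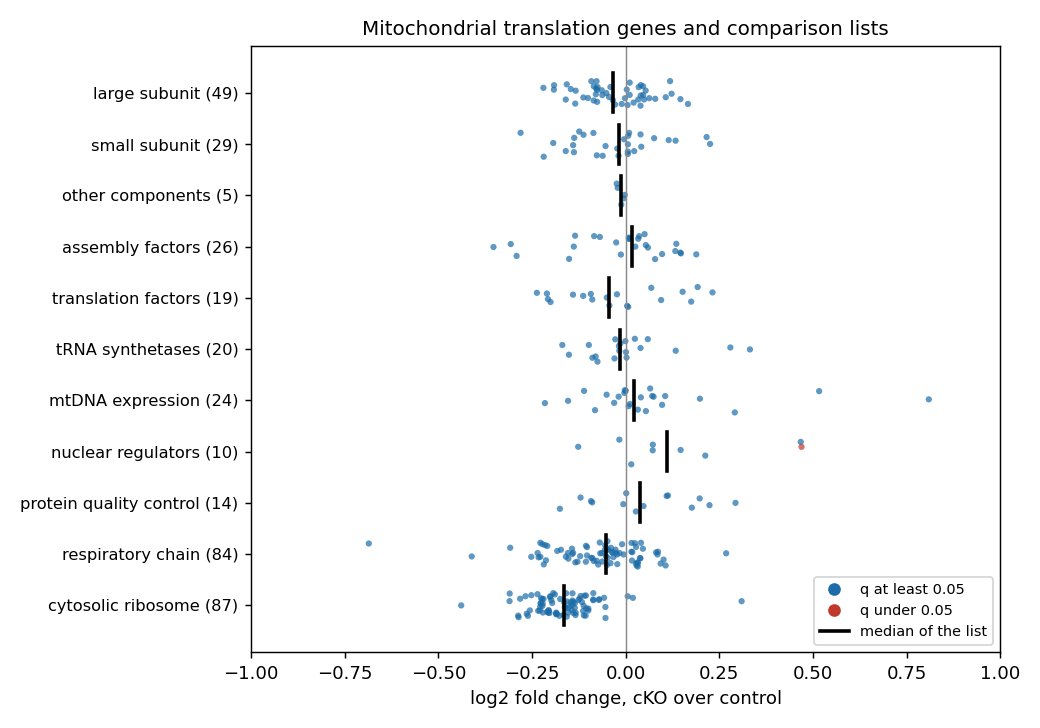
Log2 fold change of cKO over control (horizontal axis, log2 units), with 1 point per gene, its height within a row without meaning. Rows are both subunits, 7 lists of mitochondrial translation and processes around it, and 2 comparison lists. Red marks a q under 0.05 and black bars mark medians. Pprc1 at 0.47 is the only red point, the subunit medians lie at -0.03 and -0.02, and the cytosolic ribosomal median at -0.16; 8 genes beyond the axis are not drawn.

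The cytosolic ribosome and the respiratory chain are the gene groups nearest in kind. The 87 genes of cytosolic ribosomal proteins had a median log2 fold change of -0.16 in the authors' deposited table, with 84 below 0 (96.6%, beside 52.3% of all genes). Of the 87, 18 (20.7%, beside 8.84% of all genes) had an unadjusted p under 0.05, all lower in cKO, but none a q under 0.05. Among the members the median was -0.03, 44 of 78 lay below 0 and none had such a p. The 84 nuclear-encoded genes of the respiratory chain and ATP synthase had a median of -0.05. Of their ratios in the authors' deposited table, 59 lay below 0 (70.2%, beside 52.3% of all genes). Of these 84, 7 (8.33%, beside 8.84% of all genes) had an unadjusted p under 0.05, 5 lower and 2 higher in cKO, and none had a q under 0.05. The differences between these lists were not tested, which would have needed the values of each library. The list of cytosolic proteins was gathered by symbol and includes paralogs with imprecise ratios such as Rpl10l (-1.87, q = 0.993) in the authors' deposited table. The respiratory chain list also holds imprecise ratios on both sides of 0, such as Ndufb4b (3.80, q = 0.932) and Ndufa4l2 (-1.84, q = 0.993).

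Some of these genes share their start region with another gene, and how often all genes do so was not computed. In RefSeq's annotation of GRCm38.p6, 27 of the 69 members with a promoter had a gene on the opposite strand that starts within 1000 bases. For 25 of them the neighbour was in the authors' deposited table, in 24 distinct pairs. No neighbour had a q under 0.05, against 1.72% of all genes, and their ratios ran from -0.34 to 0.19 with a median of -0.05. Mrpl46 and Mrps11 are a pair of members whose starts lie 42 bases apart, and stood at -0.09 and 0.01 in the authors' deposited table. Mrps12 starts 147 bases from Sars2, the mitochondrial seryl-tRNA synthetase, and they stood at -0.14 and 0.00 in the authors' deposited table. Mrpl43 starts 116 bases from Twnk, the mitochondrial DNA helicase, and they stood at -0.08 and 0.01 in the authors' deposited table.

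Promoters of 2 pairs in which both genes serve mitochondrial translation are shown from the side of the small-subunit gene. Mrps11 lies at chr7:78782881-78783180 (plus strand) and Mrps12 at chr7:28741772-28742071 (minus strand), on GRCm38.p6, with the same motifs in capitals.
Mrps11: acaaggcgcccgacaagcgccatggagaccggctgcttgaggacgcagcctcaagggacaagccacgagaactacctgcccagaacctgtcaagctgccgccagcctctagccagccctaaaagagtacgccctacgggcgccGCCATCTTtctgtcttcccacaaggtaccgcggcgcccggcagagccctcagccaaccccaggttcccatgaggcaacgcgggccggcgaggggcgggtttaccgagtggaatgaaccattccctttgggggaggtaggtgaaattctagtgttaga
Mrps12: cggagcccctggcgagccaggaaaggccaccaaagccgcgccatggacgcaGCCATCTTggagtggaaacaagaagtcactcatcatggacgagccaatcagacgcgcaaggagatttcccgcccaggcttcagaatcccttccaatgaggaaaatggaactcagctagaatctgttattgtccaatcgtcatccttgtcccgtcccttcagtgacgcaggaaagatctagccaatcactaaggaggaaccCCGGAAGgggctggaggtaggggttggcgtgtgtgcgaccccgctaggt
Mrps11 has a YY1 match, and Mrps12 has a YY1 match far from its own start and an ETS match near it. The gene with the lowest p among the neighbours was Ppp1r10, a regulator of protein phosphatase 1, named after its value was seen, at -0.32 (p = 0.0216, q = 0.37), 756 bases from the start of Mrps18b, which stood at 0.22, in the authors' deposited table.

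**Figure D5:**
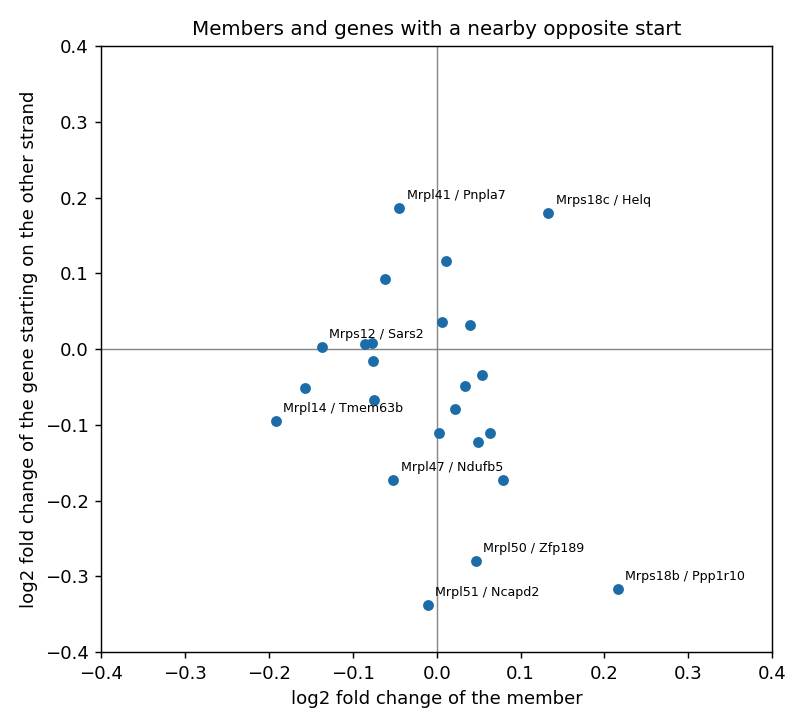
Log2 fold change of 24 members (horizontal axis, log2 units) against that of the gene that starts within 1000 bases on the opposite strand (vertical axis, log2 units), with 1 point per pair and some pairs labelled. No neighbour passed the threshold, and the widest apart is Mrps18b at 0.22 with Ppp1r10 at -0.32.

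Overlap of genes on opposite strands touches the reading of some ratios, since no source used here says whether the counting used strand. In GENCODE's mouse annotation M21, 36 of the 78 members overlap a gene on the opposite strand, and for 21 of them such a partner was in the authors' deposited table. The share of all genes with such an overlap was not computed. Of the 23 pairs of a member and its partner, which count Mrpl46 and Mrps11 from both sides, 1 had a partner with a q under 0.05, beside 1.72% of all genes. This partner was found after the values had been seen. It was Wdfy1, an endosomal FYVE-domain protein, which stood at 1.81, or 3.51 times the control level (q = 5.33e-38), in the authors' deposited table. Its partner Mrpl44 stood at -0.13 with an interval from -0.34 to 0.07 in the authors' deposited table, on the other side of 0. Processed copies are another limit: Mrpl23, Mrpl48 and Mrps36 have a pseudogene named after them in that annotation, and reads shared with it would make their ratios uncertain.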

How the data were processed

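The authors deposited 1 table for the comparison of 3 cKO with 3 control samples. Per the file headers it gives a log2 ratio of Morrbid cKO over WT, a p-value and a q-value per gene. WT in the header was read as the control genotype, without Cre. Tools named in the submitters' processing notes, with no role or order, are RSEM 1.3.1, DESeq2 1.4.5 and Bowtie2, and the build named is mm9. No label states filters or scaling. The authors' q-values matched the p-values adjusted by Benjamini-Hochberg over the 16138 genes, with relative differences of at most 0.00591.

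A gene was called at a q under 0.05. Implied standard errors were the absolute ratio divided by the normal statistic of the two-sided p, and intervals were at 95%. Recovery of the standard error was checked on simulated data. The simulated p-values came from the same normal formula, so the check covers the calculation and not the assumption of a Wald-type test. Coverage of the intervals was not checked. The planned fits of counts or normalized values needed values per library and were replaced by the authors' deposited test. Members and lists were chosen with earlier results of these data known. Subunit sites and bacterial counterparts were assigned from knowledge of published structures. Members named were those with a q under 0.05 and, per subunit, the 5 smallest p and the 5 highest and lowest ratios, with the Mrps18 paralogs, Mrps30 and Mrps36, which gave 24, and members of structural sites. From each list came the called genes or the 2 smallest p, and further list genes, core proteins and neighbours were named after their values were seen. Promoters came from RefSeq, GRCm38.p6. Computation used Python 3.11.15 (SciPy 1.17.1, pandas 2.3.3, NumPy 2.4.6) and figures matplotlib 3.10.9.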

Additional observations from a re-analysis of the deposited data

How the results depend on the processing

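No paired analysis was possible because single libraries have no column in the file that was analysed, and the planned fits without each replicate were not run for that reason. The count of 0 called members in each subunit was also 0 at a q under 0.01, at an unadjusted p under 0.05, with a Holm adjustment, with implied standard errors limited to 1 log2 unit, over mRNA genes, with subunits set by structure and with the components of other symbols added. Over the 118 pathway genes, the count of 1 became 3 at an unadjusted p under 0.05, which 8.84% of all genes reached. That threshold is looser by construction. With a Holm adjustment the count became 0, where the adjusted p of Pprc1 was 0.439. The median of the small subunit moved from -0.019 to -0.038 with subunits set by structure, by construction with other members. The other alternatives, and all of those for the large subunit, left the medians within 1.5 times. Centring on the median of the genes within that limit shifted every ratio alike by less than the smallest member ratio and says nothing of stability. Depth limits could be judged from the implied standard errors alone.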
